A study of Mus musculus with 6 samples.

Results

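Neurexins, neuroligins and the leucine-rich repeat transmembrane proteins called LRRTMs are adhesion proteins of the synapse. The 9 genes described here are the neurexins Nrxn2 and Nrxn3, the neuroligins Nlgn1, Nlgn2 and Nlgn3, and Lrrtm1, Lrrtm2, Lrrtm3 and Lrrtm4. They are the rows of the deposited table whose mouse Ensembl identifier maps to these 9 symbols. All 9 were found among the 78298 genes of the table, and all 9 reached the mean of 10 normalised counts over the 6 libraries required for testing, as did 17391 genes in all. Other genes of these families were not analysed here.

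Polyadenylated RNA of the left brain, taken whole, was sequenced in 3 Top2b-low and 3 wild-type (WT) mice, all male, with a separate library for each. The Top2b protein, topoisomerase IIβ, cuts and reseals both strands of DNA and is the form found in mature neurons. Both Top2b alleles of Top2b-low mice carried the peptide tag of the auxin-inducible degron system, which CRISPR/Cas9 editing had added to the beginning of the coding sequence, and WT mice are labelled wild type. No compound was given to either genotype, so the allele was studied without auxin. The labels give an age of 10 weeks and the series text 3.5 months, and which applies is not resolved. The library name of Top2b-low replicate 3 ends in dNdN where those of replicates 1 and 2 end in Homo. The labels do not explain that ending, and it is unsettled whether this mouse had the same allele as the other Top2b-low mice. The library names of Top2b-low replicate 3 and WT replicate 3 begin with N22, and these 2 libraries are called N22 below. The remaining 4 libraries are Top2b-low replicates 1 and 2 and WT replicates 1 and 2. What N22 stands for is not given.

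Neurexins sit in the presynaptic membrane and reach across the synaptic cleft. Neuroligins and LRRTMs sit in the postsynaptic membrane and bind neurexins. Nlgn1 is known mainly from excitatory synapses, Nlgn2 from inhibitory synapses and Nlgn3 from both, and the LRRTMs are known as organisers of excitatory synapses. A neurexin gene gives a long alpha and a short beta form from separate promoters, followed by extensive alternative splicing. The deposited table has a single row per gene, so forms of a gene could not be told apart.

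Promoter windows of 300 bases, 250 before and 50 after a transcription start, were taken for 6 of the 9 genes from the RefSeq table for GRCm38.p6. No entry was found there for Nrxn2 and Nlgn3. Lrrtm2 was left out of the search, so the lack of a window for it here does not mean that the table holds none. The windows of Lrrtm1, Lrrtm4 and Lrrtm3 are shown because, in the N22 comparison given below, these genes had 1 called difference, 1 difference short of the threshold and 1 near 0. Capitals mark matches, on either strand, to the GC box GGGCGG, the cAMP-response element core TGACG, the TATA box TATAAA or the E-box CAGCTG. All sequences run 5′ to 3′ on the strand of the gene.
Lrrtm1, chr6:77242227-77242526, plus strand: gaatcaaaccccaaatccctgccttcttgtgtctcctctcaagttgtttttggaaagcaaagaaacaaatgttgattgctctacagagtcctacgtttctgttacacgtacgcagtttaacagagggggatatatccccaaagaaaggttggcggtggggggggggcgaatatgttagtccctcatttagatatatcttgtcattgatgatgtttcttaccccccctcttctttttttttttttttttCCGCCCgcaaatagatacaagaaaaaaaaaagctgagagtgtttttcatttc
Lrrtm4, the first of 2 starts, chr6:80018627-80018926, plus strand: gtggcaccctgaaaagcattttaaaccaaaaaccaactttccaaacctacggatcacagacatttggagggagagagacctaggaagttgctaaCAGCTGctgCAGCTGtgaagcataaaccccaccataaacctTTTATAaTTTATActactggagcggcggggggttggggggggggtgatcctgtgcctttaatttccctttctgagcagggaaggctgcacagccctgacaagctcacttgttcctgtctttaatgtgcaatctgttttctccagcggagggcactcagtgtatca
Lrrtm3, chr10:64090206-64090505, minus strand: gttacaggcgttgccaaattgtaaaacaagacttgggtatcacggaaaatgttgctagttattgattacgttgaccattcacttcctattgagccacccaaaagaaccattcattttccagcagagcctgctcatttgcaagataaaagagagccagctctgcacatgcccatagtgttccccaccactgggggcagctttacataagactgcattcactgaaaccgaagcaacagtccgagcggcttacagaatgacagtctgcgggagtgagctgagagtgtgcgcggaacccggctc
The Lrrtm1 window held 40.7% G and C, 7 CpG sites and 1 GC box match. The Lrrtm4 window held 48.7% G and C, 4 CpG sites, 2 TATA box matches and 2 E-box matches. The Lrrtm3 window also held 48.7% G and C, with 10 CpG sites and 0 matches to the 4 motifs. For comparison, the Nlgn2 window was richer in G and C, at 68.7%, with 26 CpG sites, 3 GC box matches, 1 cAMP-response element core and 1 E-box. Over the 32841 promoters of the same length taken from that table the median was 52.7% G and C with 7 CpG sites. A GC box match was present in 35.7% of them, the cAMP-response element core in 20.8%, the TATA box in 13.6% and the E-box in 16.3%. A match describes letters in a window and no measured binding.

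The genes differ in length and in their neighbours. Nrxn3 spans 1612.1 kb on chromosome 12, Nlgn1 906.2 kb on chromosome 3, Lrrtm4 791.3 kb on chromosome 6, Lrrtm3 161.8 kb on chromosome 10 and Nrxn2 125.4 kb on chromosome 19. Nlgn3 spans 26.8 kb on chromosome X, Lrrtm1 15.1 kb on chromosome 6, Nlgn2 14.7 kb on chromosome 11 and Lrrtm2 6.0 kb on chromosome 18. Lrrtm1, Lrrtm2 and Lrrtm3 each lie inside an alpha-catenin gene on the opposite strand, Lrrtm1 in Ctnna2, Lrrtm2 in Ctnna1 and Lrrtm3 in Ctnna3. Lrrtm2 shares 95 exonic bases with Ctnna1, and the other two share 0 with their hosts. Nlgn3 shares 3823 of its 9271 exonic bases with Gm21986 on the same strand, which averaged 58.3 normalised counts. Nlgn1 shares 1229 exonic bases with the antisense gene A830092H15Rik (mean 33.8 normalised counts) and Lrrtm4 shares 1543 with the antisense gene Gm4409 (mean 10.4). The kit keeps strand, but whether counting used strand is not given, so reads of such pairs may be split or shared.

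Library totals, summed over genes from the recovered counts, ran from 16963067 to 35246703 reads. The 2 N22 libraries had the largest totals, at 35246703 reads in Top2b-low replicate 3 and 28629911 in WT replicate 3. Each of the 9 genes was counted with at least 492 and at most 11229 reads in every library. Top2b, the targeted gene, had 2152, 2314 and 1965 normalised counts in Top2b-low replicates 1 to 3 and 3160, 3014 and 2485 in WT replicates 1 to 3, a log2 difference of -0.42 (SE 0.11) with groups that did not overlap. It did not pass over all genes (limma adjusted p = 0.99997, edgeR 0.99995, DESeq2 0.99991). With an N22 term the adjusted p was 0.224 in limma, 0.225 in edgeR and 4.9e-05 in DESeq2. The 7 pan-neuronal markers summed to 126390 to 137390 normalised counts over the 6 libraries. The 9 cerebellar granule cell markers summed to 4811 and 4732 in the N22 libraries, against 22607 to 27086 in the other 4, although the labels give the same tissue for all.

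None of the 9 genes passed limma's test between genotypes. Their log2 differences, Top2b-low minus WT, ran from -0.04 for Lrrtm4 to 0.10 for Nlgn1, and the 95% intervals lay within -0.29 to 0.45. Of the 9 genes 0 passed at an adjusted p of 0.05, where 0.00% of all tested genes passed, and 0 were under an unadjusted p of 0.05, against 1.51% of all tested genes. Also with edgeR and DESeq2, 0 of the 9 passed. The genotype model had no N22 term. With that term in limma the SE was 0.05 for Nrxn2 and 0.08 for Lrrtm1, against 0.10 and 0.16 without it. Again 0 of the 9 passed, and 0 were under an unadjusted p of 0.05, beside 1011 of 17391 tested genes. Without the term 262 genes were, as the spread between the library sets then stays in the error of the model. The test given first thus had less power to find a difference. The estimate was above 0 for 6 genes and below 0 for 3, with a median of 0.03 on the log2 scale, against -0.002 over all tested genes, of which 49.4% were above 0. The per-library values that follow are normalised counts, which are not scaled to transcript length.

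Nrxn2 had 8056, 7891 and 6643 normalised counts in Top2b-low replicates 1 to 3, against 7558.5, 7715 and 6693 in WT replicates 1 to 3. Replicate 3 was the lowest library in both genotypes, and the genotypes overlapped. The means were 7530.1 ± 772.5 in Top2b-low and 7322 ± 551 in WT (SD, n = 3 each), a log2 difference of 0.04 (SE 0.10, 95% interval -0.20 to 0.27). Nrxn3 had 4605, 5088 and 4381.5 normalised counts in Top2b-low libraries, against 4606, 4923 and 4327.5 in WT libraries. Each replicate number ranked alike in the 2 genotypes for Nrxn3, with replicate 2 highest and replicate 3 lowest. Its log2 difference was 0.02 (SE 0.09, 95% interval -0.18 to 0.22).

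Nlgn1 was the only one of the 9 whose genotypes did not overlap. It had 1453, 1525 and 1465 normalised counts in Top2b-low libraries, against 1319, 1424 and 1409.6 in WT libraries. The lowest Top2b-low library thus stood above the highest WT library, as in 2.70% of all tested genes. The reverse, with all Top2b-low libraries below all WT libraries, held for 3.04% of all tested genes and for 0 of the 9. The means were 1481 ± 38.4 in Top2b-low and 1384 ± 56.8 in WT (SD, n = 3 each), an estimate 7.03% higher in Top2b-low with a 95% interval from -5.07% to 20.7%. This did not pass limma's test (unadjusted p = 0.225, adjusted p = 0.99997), nor any other fit tried, the smallest adjusted p being 0.744. Nlgn2 had 6014, 5899 and 5081 normalised counts in Top2b-low libraries, against 5709, 5499 and 5350.2 in WT libraries. Its replicate 3 was again the lowest in both genotypes, and the log2 difference was 0.03 (SE 0.09, 95% interval -0.17 to 0.23). Nlgn3 had 2258, 2307 and 1862 normalised counts in Top2b-low libraries, against 2158, 2156 and 1934 in WT libraries. Replicate 3 was the lowest there as well, and the log2 difference was 0.04 (SE 0.10, 95% interval -0.21 to 0.28).

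Lrrtm1 had 853, 999 and 1145 normalised counts in Top2b-low libraries, against 797, 919 and 1135 in WT libraries. Replicate 3 was the highest in both genotypes, the reverse of the neurexins, Nlgn2 and Nlgn3. Its log2 difference between genotypes was 0.08 (SE 0.16, 95% interval -0.29 to 0.45), the widest interval of the 9. Lrrtm2 had 1838, 1742 and 1859.5 normalised counts in Top2b-low libraries, against 1938.5, 1969 and 1560.3 in WT libraries. WT replicate 3 was the lowest of all 6, and the Top2b-low libraries lay inside the WT range. The Lrrtm2 means were 1813 ± 62.6 in Top2b-low and 1823 ± 228 in WT (SD, n = 3 each). Lrrtm3 had 898, 972 and 934 normalised counts in Top2b-low libraries, against 929, 988 and 947 in WT libraries. It varied least among the 9 genes over the 6 libraries (SD of log2 0.05), and Lrrtm1 varied most (0.21). Lrrtm4 had 605, 622 and 707 normalised counts in Top2b-low libraries, against 613, 660.5 and 706.9 in WT libraries. Its replicate 3 was the highest in both genotypes, and its log2 difference was -0.04 (SE 0.10, 95% interval -0.27 to 0.20).

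**Figure D1:**
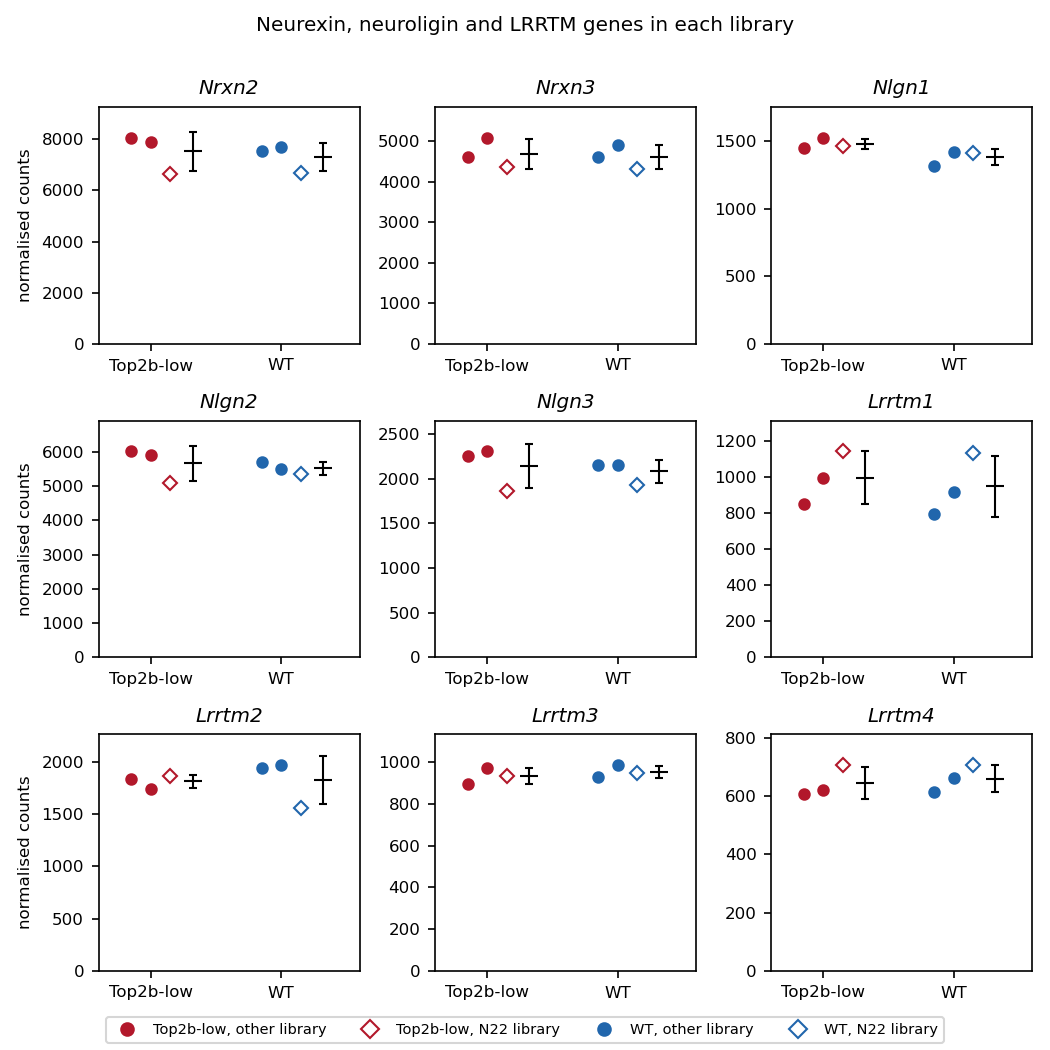
Normalised counts (vertical axes) of the 9 genes in each library, Top2b-low at left in red and WT at right in blue, with open diamonds for the 2 N22 libraries and black marks for mean ± SD (n = 3 each). The genotypes overlap for every gene but Nlgn1, and the N22 libraries lie lowest in each genotype for Nrxn2, Nrxn3, Nlgn2 and Nlgn3 and highest in each for Lrrtm1 and Lrrtm4.

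Topoisomerase II is known as an aid to transcription of long genes in neurons, so the 9 genes were also split by span. The 5 genes that span over 100 kb (Nrxn2, Nrxn3, Nlgn1, Lrrtm3 and Lrrtm4) had a median genotype log2 difference of 0.02, and the 4 shorter genes one of 0.03. Over the tested genes with a span in the GRCm38 annotation the medians were 0.019 for 2377 genes over 100 kb and -0.007 for 14138 shorter genes. Tested genes without a span there were left out. The longest, Nrxn3, was at 0.02, and Nlgn1, the next longest, at 0.10.

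Cell type markers are given beside these values, the forebrain lists first. All 11 forebrain excitatory markers had estimates above 0 in Top2b-low (median log2 0.21, 0 passed), and their sums were 73959, 71422 and 89479 in Top2b-low replicates 1 to 3, against 60197, 60634 and 76288 in WT replicates 1 to 3. Camk2a alone gave 48681, 43994 and 57526 of the Top2b-low sums and 36985, 37206 and 49377 of the WT sums. The ranges overlap across the library sets, and within each same-numbered pair the sum was higher in Top2b-low. All 8 striatal markers also had estimates above 0 (median log2 0.20, 0 passed), with sums of 19001, 18401 and 22310 in Top2b-low, against 16368, 16416 and 20573 in WT libraries, again higher in Top2b-low within each pair. All 5 tested hindbrain and spinal markers had estimates below 0 (median log2 -0.90, 0 passed). Estimates were also below 0 for 6 of 7 oligodendrocyte, 4 of 5 oligodendrocyte precursor, 6 of 9 granule cell and 5 of 7 thalamic markers. They were above 0 for 6 of 7 hippocampal and 5 of 6 endothelial markers, and the remaining lists were nearly even. The part of any of these markers in the small differences of the 9 genes was not tested.

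The N22 libraries differed from the other 4 in 3 of the 9 genes. Lrrtm1 was higher, and Nrxn2 and Nlgn3 were lower, by limma's test with genotype in the model and adjustment over all genes. Among all tested genes 11.3% were called higher and 16.7% lower, so calls in this comparison were common and the 1 higher and 2 lower of 9 are near those shares. Lrrtm1 had 1145 and 1135 normalised counts in the N22 libraries, against 797 to 999 in the other 4, a level 28.2% higher (log2 difference 0.36, SE 0.09, limma adjusted p = 0.0135). Nrxn2 had 6643 and 6693 in the N22 libraries, against 7558.5 to 8056 in the other 4, a level that fell by 14.5% (log2 difference -0.23, SE 0.05, limma adjusted p = 0.0121). Nlgn3 had 1862 and 1934 in the N22 libraries, against 2156 to 2307 in the other 4, where it fell by 14.5% (log2 difference -0.23, SE 0.06, limma adjusted p = 0.0194). All 3 calls were lost without either N22 library and without limma's intensity trend. A fit without either one has a single N22 library, which is assumed to vary like the others. Without Top2b-low replicate 3 the adjusted p was 0.152 for Nrxn2, 0.260 for Nlgn3 and 0.0842 for Lrrtm1. Without WT replicate 3 it was 0.0600 for Nrxn2, 0.0531 for Nlgn3 and 0.161 for Lrrtm1. Without the trend it was 0.0761 for Nrxn2, 0.0884 for Nlgn3 and 0.0869 for Lrrtm1.

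The other 6 genes did not pass. Lrrtm4 had 706.98 and 706.91 normalised counts in the N22 libraries, against 605 to 660.5 in the other 4 (log2 difference 0.18, SE 0.07, limma adjusted p = 0.0985). Nlgn2 had 5081 and 5350.2 in the N22 libraries, against 5499 to 6014 in the other 4 (log2 difference -0.15, SE 0.06, limma adjusted p = 0.0897). For Nrxn3 the N22 values of 4381.5 and 4327.5 stood below the 4605 to 5088 of the other 4 (log2 difference -0.14, SE 0.06, limma adjusted p = 0.119). Lrrtm2 had a log2 difference of -0.13 (adjusted p = 0.258), Nlgn1 one of 0.01 (0.937) and Lrrtm3 one of -0.01 (0.940). Without Top2b-low replicate 3 the Lrrtm2 difference was -0.32 (limma adjusted p = 0.0492), and without WT replicate 3 it was 0.06. Each of these fits has a single N22 library, assumed to vary like the other libraries, so neither is a replicated test. Values of the N22 libraries lay outside the range of the other 4 for 4 genes on the low side, where 26.5% of all tested genes did so, and for 2 genes on the high side, where 22.8% did. All 4 genes on the low side were neurexins or neuroligins, and both on the high side were LRRTMs. The remaining genes, Nlgn1, Lrrtm2 and Lrrtm3, overlapped, with Lrrtm2 at -0.13, and a division by family was not tested. The median log2 difference of the 9 was -0.13, against -0.005 over all tested genes.

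**Figure D2:**
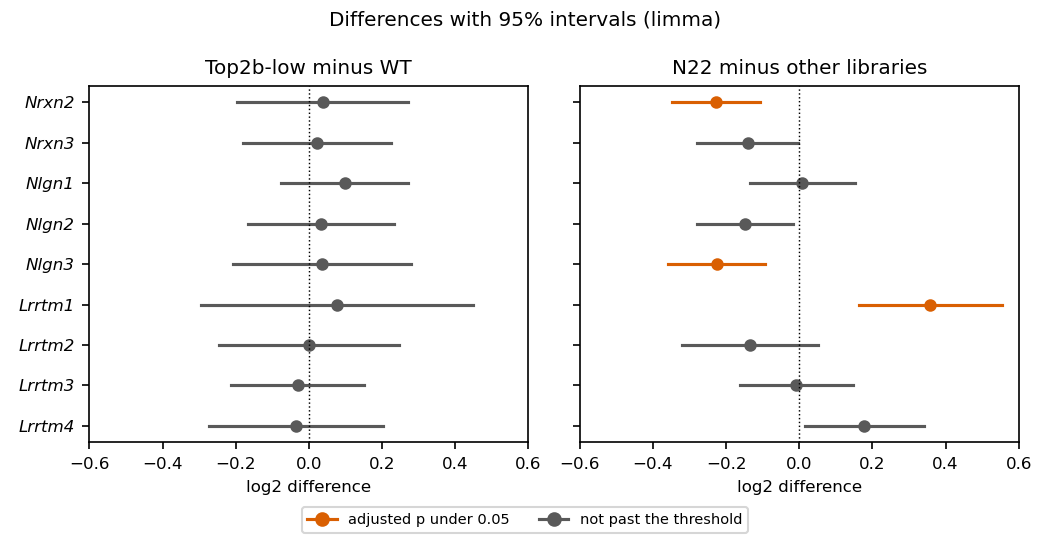
Log2 differences (horizontal axes) of the 9 genes with 95% limma intervals, Top2b-low minus WT (n = 3 each) at left and N22 minus the other libraries (2 against 4) at right, with orange for an adjusted p under 0.05. At left every interval crosses 0, and at right Nrxn2 and Nlgn3 (both -0.23) and Lrrtm1 (0.36) are called.

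Regional markers moved with the N22 set as well. In the N22 libraries all 9 granule cell markers were called lower, with the sums given above. They ran from Gabra6, at a mean of 0.65 in N22 against 2119 in the other 4, to Etv1 at 2278 against 4041. Of 7 Purkinje cell markers 6 were lower, with sums of 20405 and 17270 against 39368 to 47761 in the other 4. Itpr1 alone gave 16879 and 13751 of the N22 sums. Pcp2 averaged 9 in N22 against 882 in the other 4, and Calb1 2831 against 5804. Of the 8 hindbrain and spinal markers 5 were tested, and all 5 were lower. Hoxa5, Hoxb5, Hoxb4, Hoxa3 and Hoxb3 were listed at 0 in both N22 libraries. Higher calls were made for 6 of 11 forebrain excitatory markers, with sums of 89479 and 76288 in N22 against 60197 to 73959 in the other 4, and for 5 of 8 striatal markers. Camk2a alone gave 57526 and 49377 of the N22 forebrain sums. Of the 11 forebrain markers, Neurod2 (log2 -0.27) and Rorb (-0.06) went the other way, and neither was called. Of 7 thalamic markers 1 was higher and 5 were lower, of 7 hippocampal markers 2 were higher and 1 was lower, and of 7 GABAergic markers 3 were higher and 2 were lower. Among glial and vascular lists, 4 of 7 astrocyte, 2 of 7 oligodendrocyte and 2 of 6 endothelial markers were lower, and 0 of 5 oligodendrocyte precursor and 0 of 6 microglia markers were called. The 7 pan-neuronal markers had 0 calls. The part of these markers in the differences of Lrrtm1, Nrxn2 and Nlgn3 was not tested. In bulk tissue fewer cells of a type and less RNA per cell cannot be told apart.

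Whether the genotype difference itself differed between the library sets was tested with an interaction term. The interaction had 0 calls among the 9 genes, against 0.0230% of all tested genes, and only Lrrtm2 had an unadjusted p under 0.05, as did 3.59% of all tested genes. Lrrtm2 had 1859.5 in the Top2b-low and 1560.3 in the WT library of N22, a log2 difference of 0.25. Outside N22 it had 1838 and 1742 in Top2b-low libraries, against 1938.5 and 1969 in WT libraries, a log2 difference of -0.13. The interaction was 0.38 on the log2 scale (SE 0.12, unadjusted p = 0.0131) and did not pass over all genes (limma adjusted p = 0.997), and its N22 side rests on 1 library of each genotype. For the other 8 genes the interaction ran from -0.16 for Nlgn2 to 0.05 for Lrrtm4.

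The catenin genes around the LRRTMs were compared because of the shared loci. Ctnna2, the host of Lrrtm1, did not pass in the N22 comparison, with 2739 and 2701 normalised counts in the N22 libraries against 2558 to 2715 in the other 4 (log2 difference 0.05, limma adjusted p = 0.518). Ctnna1, the host of Lrrtm2, was at a log2 difference of -0.085 (limma adjusted p = 0.348). Ctnna3, the host of Lrrtm3, was lower in N22, with 45.6 and 29.2 against 46.8 to 75.2 (log2 difference -0.78, limma adjusted p = 0.0467), while Lrrtm3 was at -0.01. None of the 3 passed between genotypes, where the log2 differences were 0.11 for Ctnna1, -0.03 for Ctnna2 and -0.03 for Ctnna3.

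Levels were compared between genes as normalised counts per kb of the longest coding transcript, a scale on which an unequal use of shorter forms adds error. The 6-library means (± SD) were 1113.4 ± 91.6 for Nrxn2, 1004 ± 62.9 for Nlgn2 and 588 ± 37.7 for Nrxn3. They were 384 ± 57.0 for Lrrtm1, 321 ± 26.3 for Lrrtm2, 247 ± 20.8 for Nlgn3 and 242 ± 8.2 for Lrrtm3. Lrrtm4 followed at 147 ± 10.4 and Nlgn1 was lowest at 121 ± 5.8. Ranges over the libraries overlapped between the neighbours Nrxn2 and Nlgn2, Lrrtm1 and Lrrtm2, and Nlgn3 and Lrrtm3, and did not overlap between the other neighbours. Nrxn2 exceeded Nlgn2 within each of the 6 libraries. The order of Lrrtm1 and Lrrtm2 was turned in WT replicate 1 alone, where Lrrtm2 was the higher at 341.9 against 313.7 counts per kb. Nlgn3 exceeded Lrrtm3 in 3 of the 6 libraries and was below it in Top2b-low replicate 3 and WT replicates 2 and 3, so their order is not settled. Nlgn2, the neuroligin of inhibitory synapses, made up 73.0% of the summed neuroligin counts per kb in Top2b-low and 73.3% in WT. Nlgn3 made up 18.0% in each genotype, and Nlgn1 9.0% in Top2b-low and 8.7% in WT. Of the LRRTM sum, Lrrtm1 made up 39.0% in N22 against 32.9% in the other 4 libraries, and Lrrtm2 26.2% against 31.0%.

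**Figure D3:**
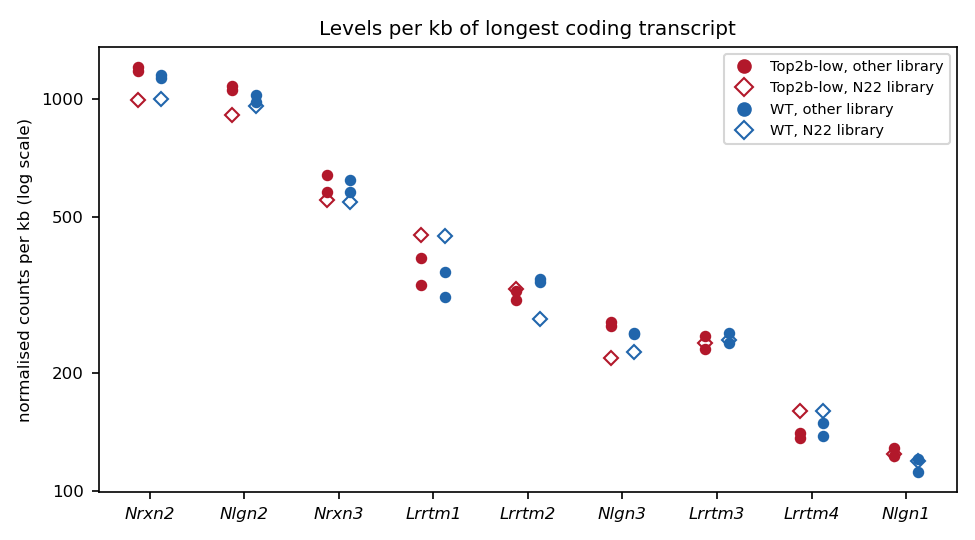
Normalised counts per kb of the longest coding transcript (log axis) for the 9 genes in order of their mean, 1 point per library. The genes run from Nrxn2 at a mean of 1113.4 to Nlgn1 at 121, and the ranges over libraries overlap between the neighbours Nrxn2 and Nlgn2, Lrrtm1 and Lrrtm2, and Nlgn3 and Lrrtm3.

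The ligands and partners of these proteins were described with 4 lists holding 82 genes, all of them tested. Between genotypes 0 of the 82 passed, and 3 were under an unadjusted p of 0.05, where 1.51% of all tested genes were. These were C1ql1, a secreted C1q-like protein, at a log2 difference of -0.45, the scaffold protein gene Dlgap2 at 0.27 and the adhesion gene Slitrk6 at -0.45. The list of 7 neuroligin modulators and partners also holds the splicing factor genes Khdrbs1, Khdrbs2 and Khdrbs3, and none of the 7 was under 0.05. The smallest unadjusted p there was 0.335, for Mdga2 at -0.12, followed by Khdrbs3 at 0.15. Second by p in the other lists were Nxph1 at -0.20, Dlgap3 at 0.17 and Lrrc4 at 0.16, all above 0.05. The N22 comparison called 5 of the 82 higher and 22 lower, where 11.3% of all tested genes were called higher and 16.7% lower. The median log2 difference of the 82 was -0.01, against -0.005 over all tested genes. Alternatives were not run for the lists.

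Among the 20 secreted and transmembrane neurexin ligands, 2 were called higher and 6 lower in the N22 libraries, where 11.3% and 16.7% of all tested genes were. The largest differences were those of Cbln3 and of its relative Cbln1, a secreted cerebellin that bridges neurexins to delta-type glutamate receptors in the cerebellum, at log2 -8.67 (SE 0.19, limma adjusted p = 1.85e-09) and -2.81 (SE 0.20, limma adjusted p = 1.05e-05). Cbln3 averaged 13.6 normalised counts in N22 and 5753 in the other 4 libraries, and it is also one of the 9 granule cell markers. Cbln1, also listed as a thalamic marker, averaged 397 in N22 and 2688 in the other 4 libraries. Nxph4, a neurexophilin, was at -0.999 and Dag1, the gene of dystroglycan, at -0.36. The C1q-like genes C1ql2 and C1ql3 were higher, at 0.38 and 0.30.

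Among the 21 intracellular partners, 1 was called higher and 5 lower, again beside 11.3% and 16.7% of all tested genes. The 3 Lin7 genes, whose proteins join Cask and Mint proteins in a presynaptic scaffold, differed in direction, with Lin7b at 0.68 and Lin7a at -0.70 and Lin7c at -0.35. Apba1, which encodes a Mint protein, was at -0.34. Of the 7 genes in the list of neuroligin modulators and partners, the Khdrbs genes included, 1 was called higher and 4 lower, beside the same shares. Khdrbs3, a splicing factor of the family that acts on neurexin exons, was higher at 0.36, while its relative Khdrbs1 was lower at -0.28. Mdga1, which blocks the binding of neuroligins to neurexins, was at -0.49 and the sheddase gene Adam10 at -0.29. Of 34 other synaptic adhesion organisers, 1 was called higher and 7 lower, a lower share near the 16.7% of all tested genes. The lowest was the teneurin Tenm1 at -0.75. Cadm3 was at -0.29, Slitrk4 at -0.30 and Ntrk3 at -0.25. Slitrk5 was the 1 that was higher, at 0.31, close to Lrrtm1.

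**Figure D4:**
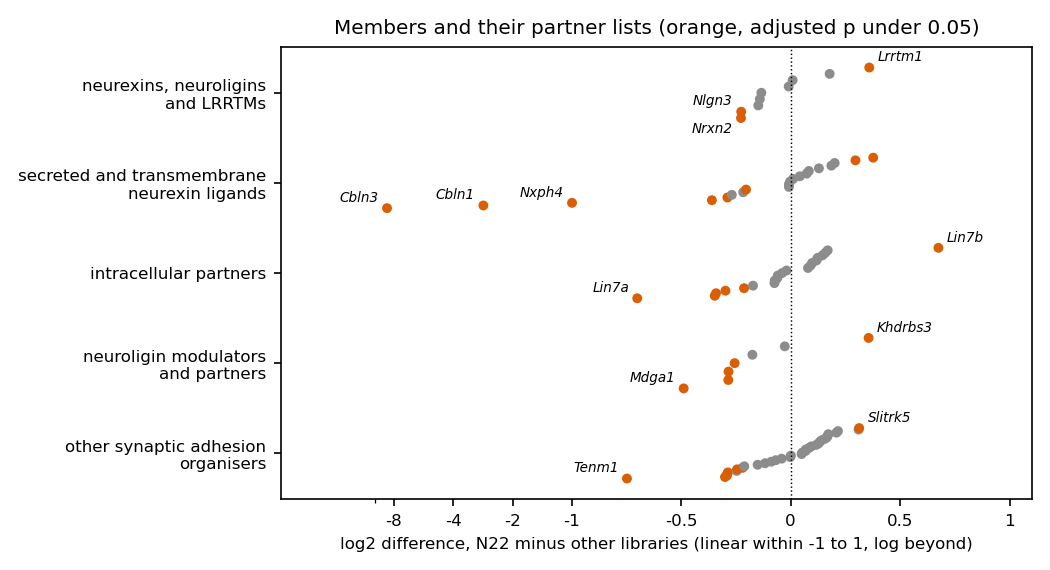
Log2 difference, N22 minus other libraries (horizontal axis, linear from -1 to 1 and logarithmic beyond), of the 9 genes and of the genes in 4 partner lists, 1 point per gene with orange for an adjusted p under 0.05. Cbln3 (-8.67) and Cbln1 (-2.81) stand far below the other genes, while the 9 genes lie between -0.23 and 0.36.

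For the 3 genes with the largest spread of log2 level over the 6 libraries, the most similar profiles were sought among 12115 genes. Likeness was the root mean square difference of mean-centred log2 levels over the 6 libraries. Lrrtm1 was most like Slitrk5 (0.031), Tmem120a (0.036) and Slc7a4 (0.045), with its own SD at 0.215. Nlgn3 was most like Cntnap1 (0.011), Pfas (0.013) and Raver1 (0.017), with an SD of 0.124. Lrrtm2 was most like Plek (0.024), Gng11 (0.031) and Gm42829 (0.033), with an SD of 0.123. Such likeness over 6 libraries that share the N22 division is a description only.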

How the data were processed

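Per the labels' protocols, polyadenylated RNA was prepared with a stranded kit and an MGI conversion kit. The deposited values are normalised counts, 1 signal value for each gene in each library. Per the submitters' processing notes, RSEM and mm39 were used. For the aligner, annotation, versions and the use of strand in counting the entry is "not given in the sources used here". Each deposited value was a whole multiple of the smallest value above 0 in its library, taken as 1 read (100% of values, tolerance 1e-06 reads). Whole counts were thus recovered, which are called reads here, and library totals are their sums over genes. Whether they were rounded from RSEM estimates is not given. In these units 3 reads equal 1.775 to 3.760 normalised counts. Between 25468 and 30367 genes were above 0 per library. A GENCODE vM21 table gave symbols for 51498 identifiers. It is of GRCm38, so it served only for symbols, chromosomes, spans, lengths and overlaps, and the promoter windows carry that build.

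Tests used log2(normalised count + 1) for genes with a mean of at least 10, in limma 3.58.1 in R 4.3.3, as two-sided moderated tests whose prior variance followed the mean level (the intensity trend), with Benjamini-Hochberg adjustment over 17391 genes and a threshold of 0.05. For genes with low counts this scale gives fold changes that are too small. The genotype model had no covariate, and the N22 model had genotype as one. Among the alternatives, the recovered reads were tested with DESeq2 1.42.0 and with the quasi-likelihood test of edgeR 4.0.16. DESeq2's independent filtering was turned off after seeing that it left the adjusted p of most genes empty in the fit with a replicate block.

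Replicates were treated as different animals, since the series text gives 3 mice for each genotype. Within genotypes no pair of libraries agreed within sampling noise (chi-square per degree of freedom 4.27 to 37.38). The titles number the replicates alike in both genotypes. Deviations from the genotype means correlated at 0.33, 0.35 and 0.68 for the same number. Top2b-low replicate 1 and WT replicate 2 correlated at 0.24, and Top2b-low replicate 2 and WT replicate 1 at 0.37. These values thus set apart the N22 pair alone. The numbers were taken to pair the libraries, but for replicates 1 and 2 neither these values nor the labels settle the pairing.

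The 9 genes, the partner lists and the marker lists were chosen with earlier results of these data known. Named genes are the 9 genes, Top2b, the 3 catenin hosts and, from each partner list, up to 4 with the smallest p in the N22 comparison and up to 2 in the genotype comparison. The 3 nearest profiles of 3 genes were sought among genes with a mean of at least 100. C1ql2, C1ql3 and Slitrk5, the motifs, the family shares, the order per kb and the division by span were chosen after values were seen.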

Additional observations from a re-analysis of the deposited data

How the results depend on the processing

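No genotype call among the 9 genes was made under any alternative, and the replicate block in limma changed no call (0 of 17391 genes, the 9 included). Beside 0 calls over all genes in the genotype comparison (262 at an unadjusted p under 0.05), DESeq2 gave 13 with the replicate block and 14 with an N22 term, 11 with the block under its default independent filtering (added after seeing the data), and leaving out single replicates 0 to 1, the 1 being without Top2b-low replicate 1. In the N22 comparison 4864 genes were called, 2181 without the intensity trend and 1711 to 4576 when leaving out 1 replicate, with 1711 without Top2b-low replicate 3 and 1945 without WT replicate 3. Of the 9 genes 3 were called, 0 without the trend and 0 to 3 when leaving out 1 replicate. Nlgn3 also missed the threshold under quantile normalization (adjusted p = 0.107), and Lrrtm4 passed there (0.23, adjusted p = 0.0458). Higher calls made up 40.4% of the N22 calls, 50.6% under quantile normalization and 45.6% with TMM factors. For the interaction 4 genes were called (Ppp1r17, Slc6a3, Zfp968 and 1 without a symbol, named after their values were seen), 1 with edgeR, 23 with DESeq2, 9 with a minimum mean of 50 and 23 to 117 when leaving out 1 replicate outside N22, an alternative added after seeing the data.

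Of 468 recomputed log2 values of the 9 genes 41 changed sign, the largest of these at 0.07 in size, and none of them was a call. The genotype value of Lrrtm2 (-0.00) became 0.0041 with TMM factors, 0.0112 under quantile normalization, 0.0086 and 0.0062 with the replicate block in edgeR and DESeq2 and 0.0085 and 0.0071 with the N22 term in edgeR and DESeq2. The N22 value of Lrrtm3 (-0.01) became 0.0120 with TMM factors, 0.0458 under quantile normalization, 0.0112 with edgeR, 0.0040 with DESeq2 and 0.0061 with array weights. Leaving out single replicates gave ranges that cross 0. Between genotypes they were -0.0255 to 0.1256 for Nrxn2, -0.0382 to 0.0695 for Nrxn3, -0.0112 to 0.1103 for Nlgn2, -0.0206 to 0.1339 for Nlgn3, -0.0421 to 0.2128 for Lrrtm1, -0.1081 to 0.0596 for Lrrtm2 and -0.1035 to 0.0150 for Lrrtm4. In the N22 comparison they were -0.0232 to 0.0406 for Nlgn1, -0.3241 to 0.0552 for Lrrtm2 and -0.0344 to 0.0146 for Lrrtm3. For the interaction they were -0.0776 to 0.0663 for Nrxn3, -0.2112 to 0.0170 for Lrrtm1 and -0.0426 to 0.0716 for Lrrtm3. The cause of these changes was not tested. Each of the 9 genes had at least 492 reads in every library, and each genotype had 3 mice.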
